A study of Homo sapiens with 14 samples.

Results

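The replication-dependent histone genes encode the H1, H2A, H2B, H3 and H4 proteins that package newly copied DNA. They were taken as every symbol of the HIST1, HIST2, HIST3 and HIST4 clusters with a class of H1, H2A, H2B, H3 or H4 and an FPKM value above 0 in at least 1 library. FPKM counts sequenced fragments per length of transcript and per depth of the library, so it is a level per length. Of 30791 symbols in the tables, 73 had such a name and 53 were above 0 somewhere, while 20 were listed at 0 in all 14 libraries. The 53 genes were 6 of H1, 14 of H2A, 13 of H2B, 8 of H3 and 12 of H4, with 44 in the HIST1 cluster, 8 in HIST2, 0 in HIST3 and 1 in HIST4.

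The cells were U2OS, a human osteosarcoma line, and every group was this 1 line with no genetic change named in the labels. DMSO, the solvent control, was used at 0.5% by volume. Groups with 2 libraries each were DMSO, 2-PCPA (1 mM, 12 h), GSK343 (10 μM, 24 h) and Rapamycin (5 μM, 24 h). Compounds with 1 library each were BIX-01294 (5 μM, 12 h), BRD4770 (20 μM, 24 h), GSK-J4 (20 μM, 12 h), SAHA (1 μM, 24 h), UNC1215 (50 μM, 24 h) and VPA (20 μM, 24 h). The labels give no time for DMSO and do not say whether replicates came from separate cultures, and a p-value here reflects the spread between these libraries, which may be technical. The replicate 1 table held 10 libraries and the replicate 2 table held 4; each was normalised separately, and every difference below was taken against the DMSO library of the same table.

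Histone mRNAs of this kind are made in S phase, when the factor NPAT acts at histone gene clusters, and most of them end in a stem-loop bound by SLBP instead of a poly(A) tail. A smaller set also gives polyadenylated transcripts, which are better kept by the mRNA purification named in the labels. Levels here describe the transcripts that passed this purification, and what share of all histone mRNA they are was not measured. H2A, H2B, H3 and H4 form the nucleosome core, and H1 binds the DNA between nucleosomes.

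Promoters are shown for 6 genes: the most abundant gene of each class in DMSO (HIST1H1C, HIST1H2AC, HIST1H2BK, HIST1H3D and HIST1H4H), and HIST2H2BE, which adds the HIST2 cluster. Each run is the 250 bases before the annotated RefSeq start on GRCh38.p14, read 5′ to 3′ on the gene's own strand. Capitals mark matches on either strand to the TATA box TATAAA, the CCAAT box, the octamer ATTTGCAT and the H4 site core GGTCCG, which can overlap. The window of HIST1H1C is chr6:26056471-26056720 (minus strand), that of HIST1H2BK chr6:27146859-27147108 (minus strand) and that of HIST1H2AC chr6:26123922-26124171 (plus strand). The window of HIST1H4H is chr6:26285535-26285784 (minus strand), that of HIST2H2BE chr1:149886683-149886932 (minus strand) and that of HIST1H3D chr6:26199294-26199543 (minus strand).
HIST1H1C: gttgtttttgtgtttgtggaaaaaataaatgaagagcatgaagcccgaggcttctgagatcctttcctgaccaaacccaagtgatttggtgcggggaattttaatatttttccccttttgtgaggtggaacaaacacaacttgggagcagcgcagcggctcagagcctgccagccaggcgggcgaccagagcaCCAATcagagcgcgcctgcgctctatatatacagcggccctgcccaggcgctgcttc
HIST1H2BK: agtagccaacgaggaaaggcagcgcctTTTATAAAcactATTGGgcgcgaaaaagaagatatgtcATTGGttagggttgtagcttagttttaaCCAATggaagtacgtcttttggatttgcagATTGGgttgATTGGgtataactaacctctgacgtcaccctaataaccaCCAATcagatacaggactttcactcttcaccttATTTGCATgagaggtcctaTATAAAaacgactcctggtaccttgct
HIST1H2AC: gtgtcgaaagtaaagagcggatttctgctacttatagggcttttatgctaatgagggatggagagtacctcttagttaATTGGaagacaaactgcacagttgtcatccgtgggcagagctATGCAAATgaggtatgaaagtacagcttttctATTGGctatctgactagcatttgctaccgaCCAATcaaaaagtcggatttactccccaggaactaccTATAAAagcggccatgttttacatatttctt
HIST1H4H: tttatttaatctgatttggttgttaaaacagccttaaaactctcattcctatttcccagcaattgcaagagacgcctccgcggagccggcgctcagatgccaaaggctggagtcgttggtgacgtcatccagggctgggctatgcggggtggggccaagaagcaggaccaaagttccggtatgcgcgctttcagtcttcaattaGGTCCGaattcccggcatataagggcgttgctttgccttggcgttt
HIST2H2BE: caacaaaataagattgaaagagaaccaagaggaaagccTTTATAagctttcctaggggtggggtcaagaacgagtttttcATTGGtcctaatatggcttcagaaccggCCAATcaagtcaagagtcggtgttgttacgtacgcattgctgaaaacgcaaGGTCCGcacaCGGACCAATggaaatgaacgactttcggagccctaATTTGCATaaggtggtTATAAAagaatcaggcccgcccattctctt
HIST1H3D: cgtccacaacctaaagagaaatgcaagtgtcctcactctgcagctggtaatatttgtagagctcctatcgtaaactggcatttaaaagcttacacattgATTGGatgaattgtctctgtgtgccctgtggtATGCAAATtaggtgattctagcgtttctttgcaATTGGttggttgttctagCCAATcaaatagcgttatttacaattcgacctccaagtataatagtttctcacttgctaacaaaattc

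The classes differed in these motifs. Of 53 histone genes, 49 matched an entry among the 35116 RefSeq promoters, each window running from 250 bases before to 50 bases after the start. CCAAT was found in all 6 H1, 13 H2A, 12 H2B and 8 H3 windows and in 1 of 10 H4 windows, against 34.6% of all promoters. The octamer, a site known for H2B promoters, was in 10 of 13 H2A and 9 of 12 H2B windows, in 1 of 8 H3 windows and in 0 of H1 and H4, against 1.77% of all promoters. The class counts are not independent, as the windows of 9 gene pairs, most of them H2A with H2B, overlap by more than 250 bases. A site in such a pair can count in both classes. The H3 window with the octamer is that of HIST1H3D, which is also counted in H2A as that of HIST1H2AD. GGTCCG, the core of the site bound by the H4 factor HINFP, was in 9 of 10 H4 windows and in 3 of the other 39, against 11.3% of all promoters. TATAAA was in 34 of 49 windows (69.4%), against 11.5% of all promoters. In HIST1H4H the GGTCCG match began at position -46 from the start, and in HIST1H1C the CCAAT match began at position -57. A match is a description of the letters, and no occupancy was measured here.

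**Figure D1:**
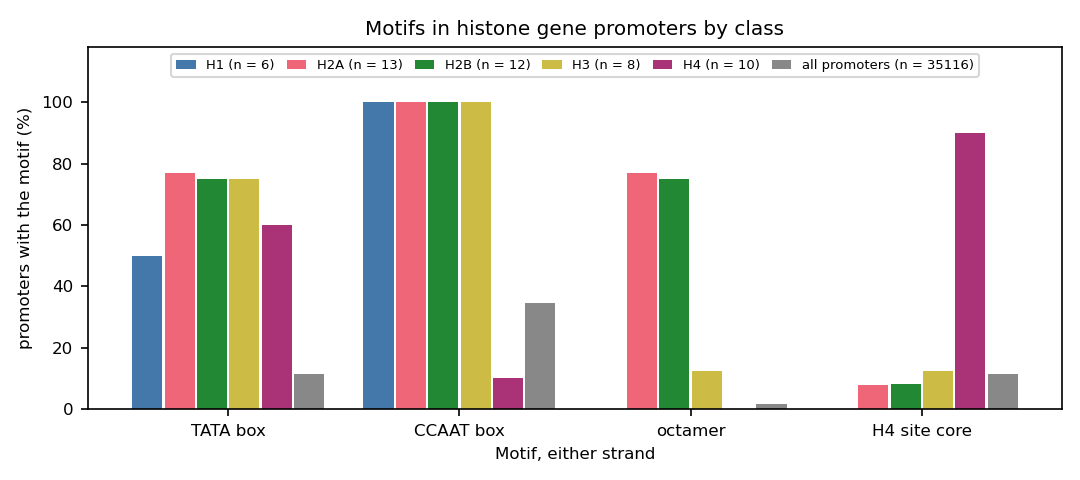
Share of promoter windows (vertical axis, %) that hold each of 4 motifs on either strand (horizontal axis), with 1 bar for each histone class and a grey bar for all 35116 promoters. CCAAT stands at 100% in H1, H2A, H2B and H3 and at 10% in H4, while the H4 site core stands at 90% in H4. Windows that overlap between classes count in each class.

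Most histone symbols had low values and a few had high ones. Of the 53 genes, 10 were above 0 in all 14 libraries, 7 were above 0 in 1 library only, and 10 had a mean DMSO level of at least 10 FPKM. HIST1H2BK, an H2B gene, was listed at 346 and 480 FPKM in the 2 DMSO libraries, and HIST1H1C, the linker histone H1.2 gene, at 217 and 351 FPKM. These 2 genes held 59.9% to 78.2% of the summed FPKM of the histone genes across libraries. In the same DMSO libraries HIST1H2AC (H2A) was at 79.2 and 115 FPKM, HIST1H2BJ (H2B) at 34.1 and 91.4 FPKM, and HIST1H4H (H4) at 25.9 and 56.1 FPKM. The H3 genes were the lowest class, with HIST1H3D at 0.797 and 5.95 FPKM and HIST1H3A at 1.21 and 4.31 FPKM. The order H2B, H1, H2A, H4, H3 of the summed class levels was the same in both DMSO libraries, with 475, 220, 95.1, 41.6 and 4.85 FPKM in the first library and 736, 356, 152, 125 and 18.1 FPKM in the second.

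By the median, but not gene by gene, the abundant genes had longer annotated transcripts. In GENCODE 29, 6 of the 10 genes with at least 10 FPKM in DMSO had a transcript with AATAAA, the poly(A) signal, in its last 50 bases, against 16 of the other 63 histone symbols. The median longest transcript was 869.5 bases in the 10 and 488 bases in the 63. These are descriptions of the annotation, and the annotation behind the FPKM values is not given in the sources used here. Histone genes have near-identical coding copies and some overlap, so reads may have been split between them and single-gene values are uncertain. HIST1H2AD and HIST1H3D had identical values in all 4 libraries of the replicate 2 table and share 1 RefSeq promoter window, so they count as 1 measurement there. In the replicate 1 table one was often near 0 where the other was not. HIST1H2AD and HIST1H3D were at 1.02 and 0.797 FPKM in DMSO and at 0.00114 and 10.2 FPKM in SAHA. They were at 0 and 5.95 FPKM in GSK343 and at 4.11 and 0.000132 FPKM in Rapamycin. Reads may have gone to either gene, so differences of HIST1H3D alone are uncertain.

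**Figure D2:**
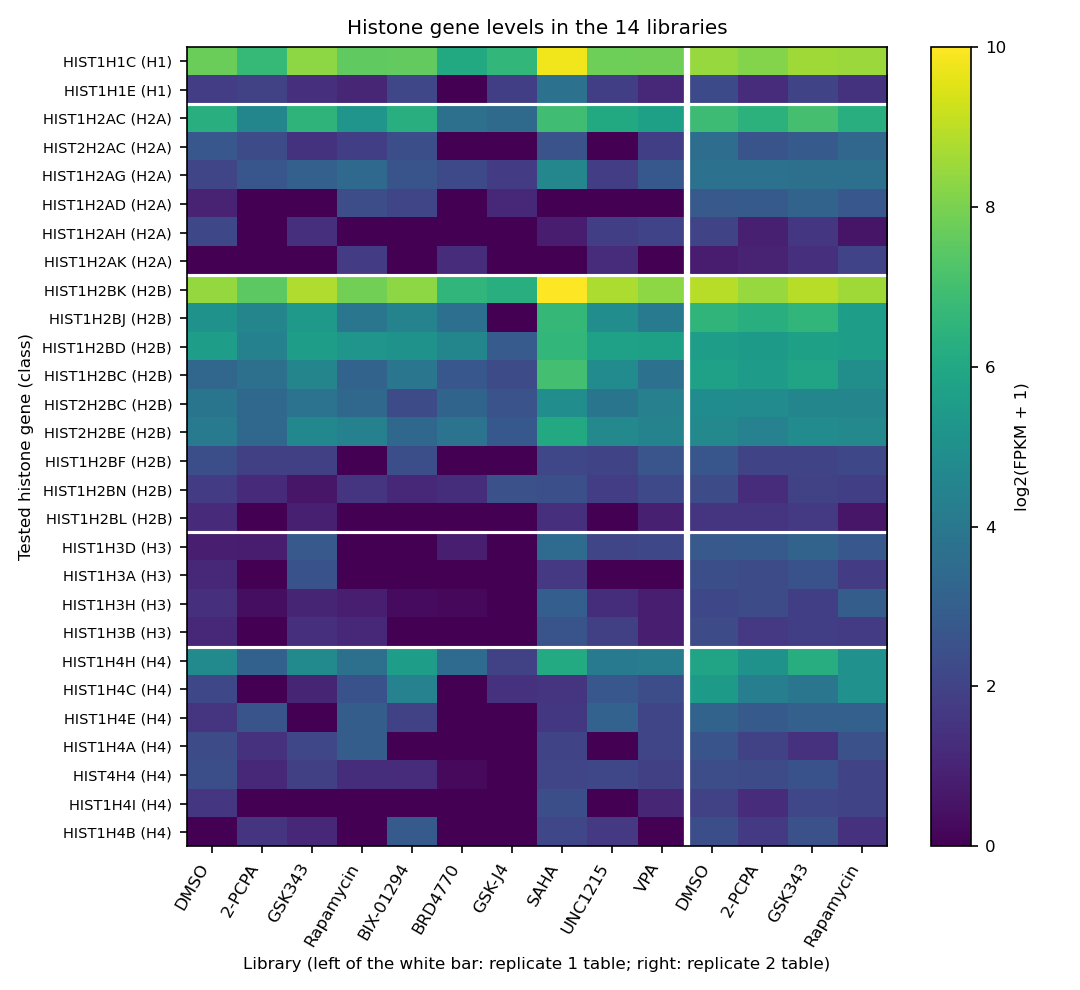
Level of each of the 28 tested histone genes (rows, grouped by class) in each of the 14 libraries (columns), coloured by log2(FPKM + 1). HIST1H1C and HIST1H2BK are bright throughout and brightest in SAHA, and most genes are dark in BRD4770 and GSK-J4.

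FPKM values hold no counts, so absolute depth is unknown; the depth of a library over that of its DMSO library, read from low FPKM values, ran from 0.555 in BIX-01294 to 1.24 in SAHA. The 2-PCPA library of replicate 1 stood apart, with 28% of 375 olfactory receptor genes above 0 against 2.4% to 6.4% in the other libraries of that table. Bone and mesenchymal markers were mixed: COL1A1 ranged from 74.0 to 187 FPKM and VIM from 388 to 1119 FPKM, RUNX2 reached 5.27 FPKM, and SP7 was listed at 0 in all libraries. The blood marker CD3E was at 0 in all libraries, while the 5 epithelial genes summed to 464 to 1162 FPKM, as KRT8 and KRT18 were high. In the groups with 2 libraries, a gene was tested when it averaged at least 1 FPKM over the 8 libraries, which 28 histone genes and 12603 genes in all did. Of the tested genes, HIST1H2AH and HIST1H2BL would not pass without their DMSO values (HIST1H2BL also not without GSK343), nor HIST1H2AK without its Rapamycin values: over the other 6 libraries, without DMSO for the first 2 and without Rapamycin for the third, they averaged 0.815, 0.917 and 0.552 FPKM. A lower level than DMSO of the first 2 genes, and a higher level after Rapamycin of the third, was favoured by this filter. The genes nearest to this limit were HIST1H4D at 0.885 FPKM, not tested, and HIST1H2BL at 1.09 FPKM, tested. The tested genes were 2 of H1, 6 of H2A, 9 of H2B, 4 of H3 and 7 of H4.

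After 2-PCPA (tranylcypromine, an inhibitor of the demethylase LSD1 and of monoamine oxidases), most histone transcripts were below DMSO in both replicates, and none passed the test. Of 28 tested histone genes, 19 were lower in both replicates, where 42.2% of all genes were, and 1 was higher in both, where 11.5% were. Their median log2 difference, on the log2(FPKM + 1) scale that understates changes of low genes, was -0.61. Over all tested genes it was -0.20, so the histone median lay at -0.41 relative to all genes. With limma and Benjamini-Hochberg adjustment at 0.05, 0 of 28 were called, and 0.0238% of all genes were. Below an unadjusted p of 0.05, 11 were lower, where 5.99% of all genes were, and 0 were higher, where 1.49% were. In bulk libraries, fewer cells in S phase and less histone mRNA per cell cannot be told apart.

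HIST1H4H, an H4 gene, was at 7.68 and 33.6 FPKM in the 2-PCPA libraries of replicates 1 and 2, against 25.9 and 56.1 FPKM in DMSO. HIST1H2AC was at 23.0 and 85.9 FPKM after 2-PCPA, against 79.2 and 115 FPKM in DMSO. For both genes each 2-PCPA library lay below the DMSO library of its table, and the groups overlapped across tables. The log2 difference was -1.18 ± 0.26 (SE, n = 2 against 2; limma adjusted p = 0.592) for HIST1H4H and -1.08 ± 0.34 (limma adjusted p = 0.592) for HIST1H2AC. The 2 most abundant genes followed: HIST1H2BK was at 176 and 349 FPKM after 2-PCPA and HIST1H1C at 103 and 285 FPKM. Both were below their DMSO libraries, with log2 differences of -0.71 ± 0.27 and -0.68 ± 0.30 (SE; limma adjusted p = 0.592 for each).

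The widest differences were in genes of low level. HIST1H4C, an H4 gene, was listed at 0 in 2-PCPA replicate 1 and at 18.2 FPKM in replicate 2, against 3.54 and 42.2 FPKM in DMSO. HIST1H2AH (H2A) was listed at 0 and at 0.850 FPKM after 2-PCPA, against 3.46 and 3.09 FPKM in DMSO. HIST1H4I (H4) was listed at 0 and at 1.40 FPKM, against 1.98 and 2.84 FPKM. Their log2 differences were -1.68 ± 0.37, -1.65 ± 0.33 and -1.13 ± 0.44 (SE; limma adjusted p = 0.592, 0.537 and 0.592). The gene higher in both replicates was HIST1H2AG (H2A), at 5.31 and 12.8 FPKM against 3.23 and 12.3 FPKM, with a log2 difference of 0.32 ± 0.31 (SE; limma adjusted p = 0.684).

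By class, the median log2 difference after 2-PCPA was -0.77 in the 7 H4 genes, -0.60 in the 6 H2A genes, -0.59 in the 9 H2B genes, -0.56 in the 2 H1 genes and -0.53 in the 4 H3 genes. Differences between classes were not tested. The median over all 28 was -0.91 in replicate 1 and -0.34 in replicate 2, while over all genes it was -0.42 and 0.01. Without 2-PCPA replicate 1, the library that stood apart, the median was -0.32, and without 2-PCPA replicate 2 it was -0.92. The call of 0 depended on which other rows were in the fit, since all genes share 1 estimate of the spread. In a fit without the rows of small RNAs and clone names, limma called 3 of the 28 (adjusted p = 0.00524 for HIST1H4C, 0.00531 for HIST1H2AH and 0.0420 for HIST1H4H), all 3 lower, and 0.31% of all genes. The call of HIST1H2AH is on a gene that entered through its DMSO values.

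After Rapamycin, which inhibits the kinase mTOR, histone transcripts were also more often below DMSO, and none passed the test. Of the 28 genes, 16 were lower in both replicates, where 37.1% of all genes were, and 2 were higher in both, where 25.5% were. The median log2 difference was -0.45, against -0.05 for all genes. limma called 0 of 28, and 0.0159% of all genes. At an unadjusted p below 0.05, 7 were lower, where 3.24% of all genes were, and 1 was higher, where 3.22% were.

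HIST1H2BJ, the third most abundant H2B gene in replicate 1 and a gene with polyadenylated transcripts, was at 14.2 and 48.3 FPKM after Rapamycin against 34.1 and 91.4 FPKM in DMSO. HIST1H4H was at 12.0 and 32.5 FPKM against 25.9 and 56.1 FPKM. Each Rapamycin value lay below its own DMSO value, and the groups overlapped across tables. The log2 differences were -1.06 ± 0.24 for HIST1H2BJ and -0.91 ± 0.26 for HIST1H4H (SE, n = 2 against 2; limma adjusted p = 0.564 and 0.611). HIST1H1C stayed close to DMSO, at 188 and 364 FPKM against 217 and 351 FPKM, a log2 difference of -0.08 ± 0.30 (SE; limma adjusted p = 0.975).

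Low genes again gave the widest differences after Rapamycin. HIST1H2AH was listed at 0 and at 0.468 FPKM against 3.46 and 3.09 FPKM in DMSO, a log2 difference of -1.82 ± 0.33 (SE; limma adjusted p = 0.331). HIST1H2BF (H2B) was listed at 0 and at 3.44 FPKM against 4.33 and 5.46 FPKM, and HIST1H2BL (H2B) at 0 and 0.521 FPKM against 1.30 and 1.91 FPKM. In the opposite direction, HIST1H2AK (H2A) was at 2.41 and 3.04 FPKM after Rapamycin, while in DMSO it was listed at 0 and at 0.743 FPKM. HIST1H2AH, HIST1H2BL and HIST1H2AK are the 3 genes that passed the filter through DMSO or Rapamycin. The log2 differences were -1.48 ± 0.47 for HIST1H2BF, -1.07 ± 0.36 for HIST1H2BL and 1.49 ± 0.36 for HIST1H2AK (SE; limma adjusted p = 0.678, 0.709 and 0.564). In a fit without the rows of small RNAs and clone names, limma called 3 of the 28, HIST1H2AH (adjusted p = 0.00139) and HIST1H2BF (0.0379) lower and HIST1H2AK (0.0149) higher, and 0.539% of all genes. HIST1H2AH entered the test only through DMSO and HIST1H2AK only through Rapamycin, so these 2 calls are on genes chosen by the group in which they are high.

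After GSK343, an inhibitor of the methyltransferase EZH2, the histone genes did not lean one way. Of the 28, 9 were higher in both replicates, where 34.6% of all genes were, and 10 were lower in both, where 26.7% were. The median log2 difference was -0.09, against 0.03 for all genes, and its sign changed when DMSO replicate 1 (0.05) or GSK343 replicate 2 (0.05) was left out. limma called 0 of 28, and 0.0159% of all genes. At an unadjusted p below 0.05, 2 were higher, where 3.3% of all genes were, and 2 were lower, where 0.92% were.

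HIST1H4C was the gene furthest below DMSO after GSK343, at 1.04 and 14.3 FPKM against 3.54 and 42.2 FPKM, with overlap across tables. HIST2H2AC (H2A) was at 1.76 and 6.03 FPKM against 5.58 and 11.0 FPKM. Their log2 differences were -1.33 ± 0.37 and -1.01 ± 0.29 (SE, n = 2 against 2; limma adjusted p = 0.949 for each). Above DMSO were H3 genes of low level: HIST1H3D was at 5.95 and 8.07 FPKM against 0.797 and 5.95 FPKM, and HIST1H3A at 4.77 and 4.78 FPKM against 1.21 and 4.31 FPKM. The gap of both genes was wider in replicate 1. In that replicate HIST1H2AD was listed at 0 after GSK343 against 1.02 FPKM in DMSO, so the gap of HIST1H3D alone is uncertain. The log2 differences were 1.17 ± 0.47 for HIST1H3D and 0.75 ± 0.48 for HIST1H3A (SE; limma adjusted p = 0.949 for each). HIST1H2BC (H2B) was at 22.3 and 55.9 FPKM against 8.88 and 51.1 FPKM, a log2 difference of 0.68 ± 0.28 (SE; limma adjusted p = 0.949). HIST1H4E, HIST1H2BN and HIST1H4A were lower in both replicates, with log2 differences of -0.85, -0.73 and -0.68, and HIST1H4B and HIST2H2BE were higher in both, with 0.60 and 0.35. In a fit without the rows of small RNAs and clone names, limma called 1 of the 28, HIST1H4C (lower; adjusted p = 0.0332), and 0.376% of all genes.

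**Figure D3:**
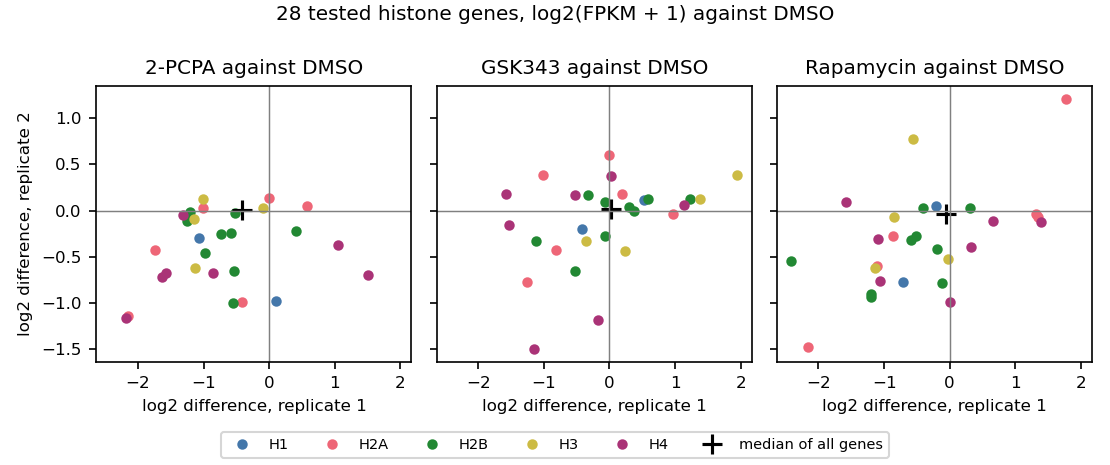
Difference of log2(FPKM + 1) from DMSO in replicate 1 (horizontal axis) and replicate 2 (vertical axis) for the 28 tested histone genes, coloured by class, with a cross at the median of all tested genes. The lower left part of each plot holds 19 genes for 2-PCPA, 16 for Rapamycin and 10 for GSK343.

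The 3 compounds were then set against each other in the same fit, and limma called 0 of 28 histone genes in each of these 3 comparisons, while it called 0.0476% of all genes for 2-PCPA against Rapamycin, 0.0317% for 2-PCPA against GSK343 and 0.0793% for GSK343 against Rapamycin. The median log2 difference of the histone genes was 0.31 for GSK343 against Rapamycin, where 17 of 28 were higher in both replicates (39.6% of all genes were) and 5 were lower in both (19.4% were). At an unadjusted p below 0.05, 10 were higher, where 4.05% of all genes were, and 4 were lower, where 1.55% were. It was -0.46 for 2-PCPA against GSK343, with 14 of 28 lower in both replicates (44.4% of all genes were), 11 lower at an unadjusted p below 0.05 (10.9% of all genes were) and 0 higher (0.762% were). It was -0.26 for 2-PCPA against Rapamycin, with 11 lower in both (37% of all genes were), 4 lower at an unadjusted p below 0.05 (9.28% were) and 1 higher (2.49% were). In a fit without 1 library, the lone library of a group is assumed to vary like the other groups. Without 2-PCPA replicate 2, which leaves only the 2-PCPA library that stood apart (28% of olfactory receptor genes above 0), limma called 6 genes lower than after GSK343 (HIST1H1C, HIST1H2AC, HIST1H2BD, HIST1H2BK, HIST1H4H and HIST2H2BE), where it called 14.6% of all genes. Without GSK343 replicate 2, with 1 GSK343 library left, it called HIST1H3D higher than after Rapamycin, and 0.246% of all genes. Doses or times differed between 2-PCPA and the other compounds, and doses between GSK343 and Rapamycin.

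In a fit without the rows of small RNAs and clone names, 7 histone genes were called between GSK343 and Rapamycin, where 0.801% of all genes were. HIST1H2BJ, HIST1H2BC, HIST1H2AH, HIST1H3A, HIST1H3D and HIST1H4H were higher after GSK343 than after Rapamycin, and HIST1H4C was lower. HIST1H2BC, for example, was at 22.3 and 55.9 FPKM after GSK343 and at 8.07 and 29.3 FPKM after Rapamycin. HIST1H2BJ was at 42.0 and 94.0 FPKM after GSK343 and at 14.2 and 48.3 FPKM after Rapamycin. Its log2 difference was 1.22 (limma adjusted p = 0.0128 in that fit), and each GSK343 library lay above the Rapamycin library of its table. In replicate 1 HIST1H3D was at 5.95 FPKM after GSK343 and 0.000132 FPKM after Rapamycin, while HIST1H2AD was at 0 and 4.11 FPKM. Each call of HIST1H3D between GSK343 and Rapamycin is therefore uncertain.

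For the 6 compounds with 1 library there is no replicate check and no test. They were compared with DMSO replicate 1 over the 25 histone genes that averaged at least 1 FPKM in the replicate 1 table, of 12804 such genes in all. A gene was counted as past the fold at a difference of at least 1 on the log2(FPKM + 1) scale. HIST1H2AB and HIST1H2AH would fall below the mean of 1 FPKM without their DMSO value, so a lower level of these 2 genes was favoured by the filter.

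After SAHA, an inhibitor of histone deacetylases, the summed level of every histone class was higher than in DMSO, while single H2A and H4 genes went both ways. Of 25 genes, 13 were past the fold higher, where 7.79% of all genes were, and 2 were past the fold lower, where 3.83% were. At any size, 17 were higher (53.9% of all genes) and 7 lower (45.4%). The median was 1.01, against 0.05 for all genes. It was 1.98 in H1, 1.52 in H3 and 1.26 in H2B, and -0.08 in H4 and -0.17 in H2A. The 2 genes past the fold lower, HIST1H2AH and HIST1H2AB, would not pass the filter without their DMSO value. They are 2 of the 5 H2A genes, so a low H2A median was favoured by the filter. The remaining H2A genes were at -0.17 (HIST2H2AC), 0.62 (HIST1H2AC) and 2.56 (HIST1H2AG). HIST1H3B and HIST1H3H, which set the H3 median and are 2 of the 13, reached the filter only through SAHA, with means of 0.825 and 0.715 FPKM over the other 9 libraries. Without them 11 of 23 genes were past the fold higher, with a median of 0.99. In all, 14 of the 25 had their highest value of the 10 libraries in SAHA, among them HIST1H3B and HIST1H3H. The same share over all genes was not counted, and SAHA had the highest relative depth (1.24). The summed FPKM of the histone genes was 3.13 times that of DMSO, and that of all listed genes was 1.16 times. HIST1H1C was at 882 FPKM against 217 FPKM (4.06-fold) and HIST1H2BK at 1024 FPKM against 346 FPKM (2.96-fold). By class, the summed FPKM was 5.34 times DMSO in H3, 4.06 times in H1, 3.06 times in H2B, 2.13 times in H4 and 1.67 times in H2A.

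HIST1H2BC differed most in SAHA, at 127 FPKM against 8.88 FPKM in DMSO (14.3-fold), and its 9 other values in the replicate 1 table lay between 3.98 and 27.0 FPKM. HIST1H3D was at 10.2 FPKM against 0.797 FPKM (12.9-fold) and HIST1H2AG at 24.0 FPKM against 3.23 FPKM (7.42-fold). The minor H1 gene HIST1H1E was at 12.5 FPKM against 2.50 FPKM (5.01-fold). These genes belong to 4 classes, so the higher level in SAHA was not held by 1 class. HIST1H2AD, which shares its window with HIST1H3D, was at 0.00114 FPKM in SAHA against 1.02 FPKM in DMSO. The fold of HIST1H3D alone is therefore uncertain. HIST2H2BE was at 65.6 FPKM against 16.1 FPKM (4.09-fold), HIST1H2BJ at 98.8 against 34.1 FPKM (2.90-fold), and HIST1H4H at 68.5 against 25.9 FPKM (2.64-fold). A few genes went the other way: HIST1H2AH was at 0.701 FPKM against 3.46 FPKM, HIST1H2AB was listed at 0 against 1.17 FPKM, and HIST1H4C was at 1.95 against 3.54 FPKM.

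VPA, valproic acid, which also inhibits histone deacetylases, was used at 20 μM and SAHA at 1 μM, so their values are given side by side only. After VPA 1 of 25 genes was past the fold higher, where 2.81% of all genes were, and 2 were past the fold lower, where 1.59% were. At any size 12 were higher (50.7% of all genes) and 12 lower (48.4%). Their median was 0.00, against 0.01 for all genes. HIST1H1C was at 229 FPKM after VPA and HIST1H2BK at 315 FPKM, each close to its DMSO value, and HIST1H2BC was at 12.3 FPKM against 8.88 FPKM. HIST1H3D was the gene past the fold higher, at 3.54 FPKM, and HIST1H2BJ, at 15.7 FPKM, and HIST1H2AB, listed at 0, were the genes past the fold lower. HIST1H2AD was at 0.00075 FPKM after VPA against 1.02 FPKM in DMSO, so the difference of HIST1H3D alone is uncertain.

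After BRD4770, an inhibitor of the G9a methyltransferase, histone transcripts were lower in every class. Of 25 genes, 17 were past the fold lower, where 4.84% of all genes were, and 1 was past the fold higher, where 5.94% were. At any size 22 were lower (50.7% of all genes) and 2 higher (48.3%). Their median was -1.26, against -0.01 for all genes. The summed FPKM of the histone genes was 0.307 of DMSO, and that of all listed genes was 1.03 times DMSO. HIST1H2AC was at 11.8 FPKM against 79.2 FPKM, HIST1H2BK at 95.1 against 346 FPKM and HIST1H1C at 66.6 against 217 FPKM. The 10 most abundant genes in DMSO, each averaging 10 FPKM or more there, were all below DMSO, 7 of them past the fold. Their choice used the DMSO library they are compared with, which favours a lower level. No set of all genes chosen alike was counted. The smallest of these 10 differences was in HIST2H2BE, at 12.9 against 16.1 FPKM. HIST2H2AC and HIST1H2BF were listed at 0, against 5.58 and 4.33 FPKM in DMSO. The gene past the fold higher was HIST1H3F (H3), at 2.37 FPKM where DMSO was listed at 0, and HIST1H2AG was at 3.64 against 3.23 FPKM.

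After GSK-J4, an inhibitor of the KDM6 histone demethylases, most histone transcripts were also lower than in DMSO. Again 17 of 25 genes were past the fold lower, where 5.96% of all genes were, and 0 were past the fold higher, where 8.92% were. At any size 21 were lower (49% of all genes) and 2 higher (50.2%). Their median was -1.34, against 0.00 for all genes. The summed FPKM of the histone genes was 0.264 of DMSO, and that of all listed genes was 1.09 times DMSO. Of the 25 genes, 13 were listed at 0, against 2 in DMSO. HIST1H2BJ was listed at 0 where DMSO had 34.1 FPKM, the widest difference among these genes on the log2(FPKM + 1) scale. HIST1H4H was at 2.84 FPKM against 25.9 FPKM, HIST1H2AC at 10.0 against 79.2 FPKM and HIST1H2BD (H2B) at 6.31 against 48.3 FPKM. HIST1H2BK was at 75.3 FPKM and HIST1H1C at 97.8 FPKM, so that HIST1H1C was the most abundant histone transcript in this library and in none of the other 13. All 8 H3 genes were listed at 0, while in DMSO 4 of the 8 were above 0, with a sum of 4.85 FPKM. The share of all genes listed at 0 in the GSK-J4 library was not counted. HIST1H2BN (H2B) was higher than in DMSO, at 4.51 against 2.34 FPKM, and HIST1H1E was at 2.63 against 2.50 FPKM. The relative depth of this library was 0.655 of DMSO, and its part in the zeros was not tested.

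BIX-01294, which also inhibits G9a, was given at 5 μM for 12 h and BRD4770 at 20 μM for 24 h, so no comparison between them is made. After BIX-01294, 4 of 25 histone genes were past the fold higher, where 9.97% of all genes were, and 6 were past the fold lower, where 6.04% were, with a median log2 difference of -0.19 against 0.06 for all genes. At any size 10 were higher (53.8% of all genes) and 15 lower (45.2%). Of the 4 past the fold higher, HIST1H3F, HIST1H4B and HIST1H2AB reached the filter only through BIX-01294 itself, with means of 0.911, 0.953 and 0.515 FPKM over the other 9 libraries. Without these 3, 1 of 22 was past the fold higher and the median was -0.42. HIST1H1C was at 191 FPKM and HIST1H2BK at 318 FPKM, each close to DMSO. The remaining gene was HIST1H4C, at 20.9 FPKM against 3.54 FPKM. Of the genes that entered through this library, HIST1H4B was at 6.18 FPKM where DMSO was listed at 0, and HIST1H3F at 16.6 FPKM where DMSO was listed at 0. HIST1H4H was at 47.6 against 25.9 FPKM. On the lower side, HIST2H2BC (H2B) was at 3.92 against 13.8 FPKM, and HIST1H4A (H4) and HIST1H2AH were listed at 0. BIX-01294 had the lowest relative depth of the replicate 1 table (0.555 of DMSO), and its part in these values was not tested.

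UNC1215, a ligand of the methyl-lysine reader L3MBTL3, gave 4 of 25 genes past the fold higher, where 1.8% of all genes were, and 2 past the fold lower, where 1.26% were, with a median log2 difference of 0.04, the same as over all genes. At any size 15 were higher (56% of all genes) and 10 lower (43%). HIST1H2BC was at 27.0 against 8.88 FPKM, HIST1H4E (H4) at 7.92 against 1.90 FPKM, and HIST1H4B at 2.17 FPKM where DMSO was listed at 0. HIST2H2AC and HIST1H4A were listed at 0, and HIST1H4H was at 16.3 against 25.9 FPKM. HIST1H1C was at 223 FPKM, close to DMSO.

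**Figure D4:**
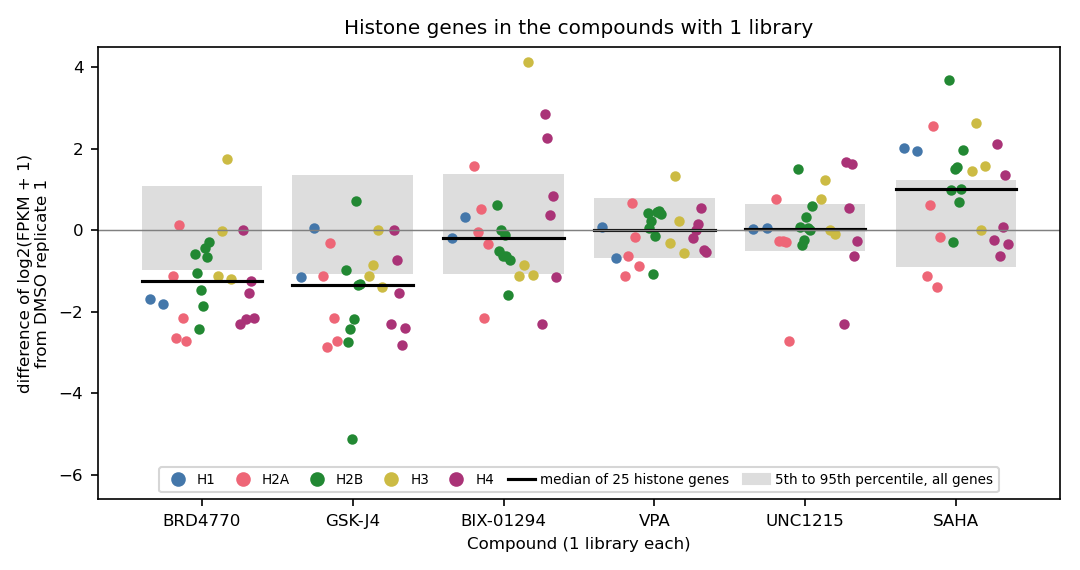
Difference of log2(FPKM + 1) from DMSO replicate 1 (vertical axis) for 25 histone genes, coloured by class, in each compound with 1 library (horizontal axis), with a black line at their median and a grey band from the 5th to the 95th percentile of all 12804 genes. The median lies at -1.26 in BRD4770, -1.34 in GSK-J4 and 1.01 in SAHA, and near 0 in the other 3.

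**Figure D5:**
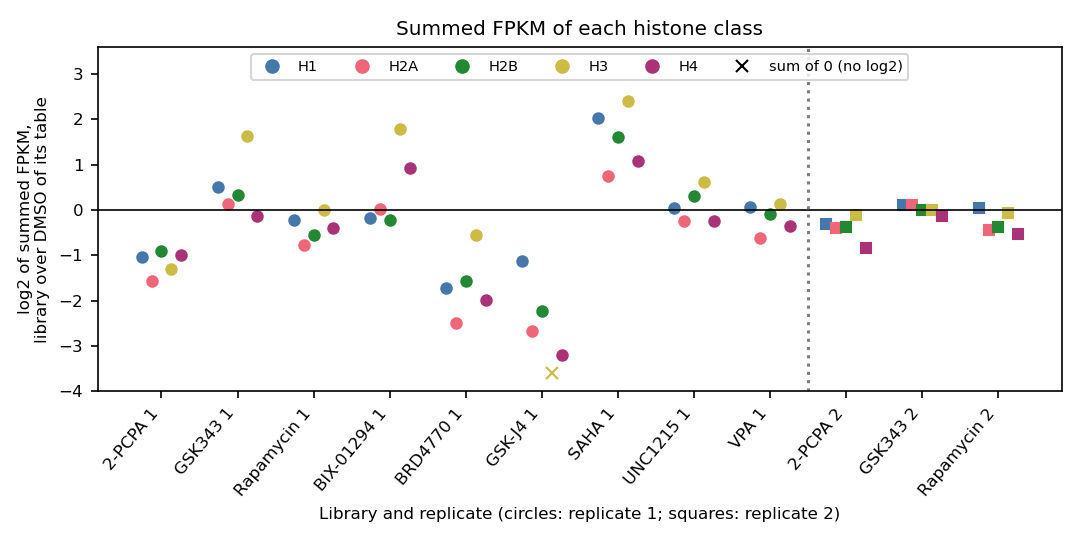
Log2 of the summed FPKM of each histone class in a library over that in DMSO of the same table (vertical axis), for 9 libraries of replicate 1 (circles) and 3 of replicate 2 (squares). All 5 classes lie above 0 in SAHA and below 0 in 2-PCPA and BRD4770, and the cross marks H3 in GSK-J4, whose sum was 0. The summed FPKM of all listed genes was 0.640 and 0.943 of DMSO in 2-PCPA replicates 1 and 2. It was 1.16 times DMSO in SAHA and 1.03 times in BRD4770.

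Genes whose products make, process or use histone mRNA were given by lists chosen with earlier results of these data known. The 15 genes of histone mRNA transcription and processing, among them NPAT, SLBP, LSM10 and LSM11, had 0 called by limma in each comparison with DMSO (0.0159% to 0.0238% of all genes). Past the fold were 0 of the 15 in SAHA (7.79% of all genes higher, 3.83% lower), BRD4770 (5.94%, 4.84%) and GSK-J4 (8.92%, 5.96%). At an unadjusted p below 0.05, 0 passed after 2-PCPA and GSK343, and 1 higher and 1 lower after Rapamycin. Of all genes, 1.49% were higher and 5.99% lower after 2-PCPA, 3.3% and 0.92% after GSK343, and 3.22% and 3.24% after Rapamycin. SLBP, which binds the histone stem-loop, was at 31.0 FPKM in SAHA, 35.0 FPKM in BRD4770 and 27.4 FPKM in GSK-J4, against 29.6 FPKM in DMSO. NPAT was at 4.85, 7.01 and 5.76 FPKM, against 4.59 FPKM. In BIX-01294, 1 of the 15 was past the fold higher (9.97% of all genes) and 1 lower (6.04%). The higher was HINFP, at 11.1 against 3.23 FPKM, and the lower was SYMPK, at 13.5 against 28.8 FPKM. After 2-PCPA, SLBP had a log2 difference of -0.36 ± 0.22 (SE, n = 2 against 2; limma adjusted p = 0.595).

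Of 26 S phase genes, 26 were lower in both replicates after 2-PCPA, with a median of -0.56. Of all genes, 42.2% were lower in both, with a median of -0.20. limma called 0, and 11 were lower at an unadjusted p below 0.05, where 5.99% of all genes were. CCNE2, cyclin E2, had a log2 difference of -0.88 ± 0.26 (SE; limma adjusted p = 0.592). After Rapamycin 12 of 26 were lower in both replicates, where 37.1% of all genes were, with a median of -0.11. After GSK343 16 of 26 were, where 26.7% of all genes were, with a median of -0.15. limma called 0 in either, and 1 was lower at an unadjusted p below 0.05 in each. Of all genes, 3.24% were after Rapamycin and 0.92% after GSK343. In the single libraries the S phase median was -0.33 in SAHA, where 21 of 26 were lower (45.4% of all genes), and -0.05 in BRD4770, where 14 of 26 were lower (50.7% of all genes). It was -0.45 in GSK-J4, where 25 of 26 were lower (49% of all genes). RRM2, a subunit of the enzyme that makes deoxynucleotides, was at 202 FPKM in SAHA, 258 FPKM in BRD4770 and 131 FPKM in GSK-J4, against 211 FPKM in DMSO. Side by side, the histone and S phase medians were -0.61 and -0.56 after 2-PCPA, -0.45 and -0.11 after Rapamycin, and -0.09 and -0.15 after GSK343. For the single libraries they were -1.34 and -0.45 in GSK-J4, -1.26 and -0.05 in BRD4770, and 1.01 and -0.33 in SAHA. The part of the cell cycle in the histone levels was not tested.

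The 17 histone chaperone and assembly genes had 0 called by limma in each comparison with DMSO, with medians of -0.35 after 2-PCPA, -0.05 after GSK343 and -0.17 after Rapamycin. At an unadjusted p below 0.05, 3 were lower after 2-PCPA, where 5.99% of all genes were, and 0 passed after the other 2 compounds. CHAF1B, a subunit of the chromatin assembly factor CAF-1, had -0.61 ± 0.20 after 2-PCPA (SE; limma adjusted p = 0.592). Of 16 used in single libraries, 0 were past the fold in SAHA and BRD4770, and 1 was higher and 1 lower in GSK-J4. Of all genes, 7.79% were past the fold higher and 3.83% lower in SAHA, 5.94% and 4.84% in BRD4770, and 8.92% and 5.96% in GSK-J4. The replacement histone genes, which are made outside S phase too, had 11 of 12 tested and 0 called by limma. At an unadjusted p below 0.05, 2 were lower after 2-PCPA (5.99% of all genes) and 1 was higher after GSK343 (3.3%). The replacement histone genes had medians of -0.47 after 2-PCPA, 0.13 after GSK343 and 0.04 after Rapamycin. In SAHA 3 of 11 were past the fold higher (7.79% of all genes) and 1 lower (3.83%). The lower one was H2AFY2, at 1.10 against 10.8 FPKM, named after its value was seen. Among the higher were H1F0, the linker histone H1.0 gene, at 843 FPKM against 357 FPKM, and H2AFJ, at 15.1 against 3.40 FPKM. In BRD4770 and GSK-J4 the replacement histone medians were -0.40 and -0.36. These lay above the histone medians of -1.26 and -1.34 and below the all-gene medians of -0.01 and 0.00. Of the 11 genes, 10 were lower in BRD4770 (50.7% of all genes) and 10 in GSK-J4 (49%). Past the fold lower were 1 in BRD4770 (4.84% of all genes) and 2 in GSK-J4 (5.96%), and 0 were past the fold higher in either.

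Among 9 histone genes listed for known polyadenylated transcripts, 8 were tested, and HIST3H2A was listed at 0 in all libraries. Their median was 1.54 in SAHA, -1.58 in BRD4770 and -2.30 in GSK-J4, and for the other 17 histone genes used it was 0.69, -1.19 and -1.13. After 2-PCPA the 8 had a median of -0.68 and the other 20 of -0.60. After GSK343 the medians had opposite signs, 0.19 in the 8, of which 0 were lower in both replicates, and -0.31 in the other 20, of which 10 were. After Rapamycin they were -0.45 and -0.43. The difference between the sets was not tested.

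The windows of 9 pairs of histone genes that face away from each other overlapped by more than 250 bases, so that both genes of a pair share the letters between their starts. HIST1H2BC and HIST1H2AC, whose shared window is shown above under HIST1H2AC, start 246 bases apart. HIST1H2BC was at 14.3 times its DMSO level in SAHA and HIST1H2AC at 1.55 times, whereas in BRD4770 HIST1H2BC was at 0.634 and HIST1H2AC at 0.148 of DMSO. HIST1H2BJ and HIST1H2AG start 248 bases apart. After Rapamycin HIST1H2BJ was at 14.2 and 48.3 FPKM, below DMSO in both replicates, while HIST1H2AG was at 9.59 and 11.9 FPKM against 3.23 and 12.3 FPKM. HIST2H2BE and HIST2H2AC start 236 bases apart, and in SAHA the first was at 65.6 against 16.1 FPKM and the second at 4.87 against 5.58 FPKM. In each of these 3 pairs the sizes of the differences were unlike, and in the last pair the SAHA values lay on opposite sides of DMSO.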

How the data were processed

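RNA-seq of U2OS cells gave 14 libraries in 10 groups. Values are FPKM as the authors deposited them, in a table of 10 libraries (replicate 1) and a table of 4 (replicate 2). Per the labels, poly(A) mRNA was isolated and libraries were amplified. Per the submitters' processing notes, FastQC, cutadapt, TopHat2 and hg19 were used; for the program behind the FPKM values, its annotation and the strand setting the sources used here give no name. 1 row without a gene name was left out.

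Groups with 2 libraries were fitted together with limma 3.58.1 in R 4.3.3 on log2(FPKM + 1), with the replicate number as a block, for genes averaging at least 1 FPKM, with Benjamini-Hochberg adjustment over 12603 genes at 0.05. The 6 pairs of groups had same-numbered deviations that correlated at 0.710 to 0.784, and the numbers also mark the 2 tables. The fit was tested on simulated data. Compounds with 1 library were compared with DMSO replicate 1 without a test, over 12804 genes. Python 3.11.15, pandas 2.3.3, numpy 2.4.6 and matplotlib 3.10.9 were used, with GENCODE 29 for transcripts.

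Named genes are those called, the 2 with the highest DMSO mean in each class, up to 5 per direction among those moving alike in both replicates of a comparison with DMSO, up to 3 per direction in each single library, and up to 3 from each other list. The members and the lists were chosen with earlier results of these data known. Alternatives changed the pseudocount, the filter on low values, the scaling, the block, the groups fitted, the rows fitted and the libraries.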

Additional observations from a re-analysis of the deposited data

How the results depend on the processing

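The counts of called histone genes, 0 in each of the 6 comparisons, depended on the rows and groups fitted. In a fit without small RNAs and clone names, limma called 3 for 2-PCPA, 1 for GSK343 and 3 for Rapamycin against DMSO, 2 for 2-PCPA against Rapamycin (1.72% of all genes), 1 for 2-PCPA against GSK343 (0.155%) and 7 for GSK343 against Rapamycin; the prior degrees of freedom of the shared spread were then 24.9 instead of 5.42. Leaving out genes at 0 throughout the replicate 1 table, an alternative chosen after seeing the data, gave 1 for 2-PCPA (0.115%) and 1 for Rapamycin (0.204%) against DMSO, 1 for 2-PCPA against Rapamycin (0.597%) and 1 for GSK343 against Rapamycin (0.532%). Both of these calls against DMSO were of HIST1H2AH, which entered the test only through its DMSO values. Fitting only the 2 groups compared gave 4 for 2-PCPA against DMSO (2.16%) and 4 for 2-PCPA against Rapamycin (3.09%). The 4 against DMSO included HIST1H2AH. The 4 against Rapamycin included HIST1H2AK, which entered the test only through Rapamycin. HIST1H2AK was also 1 of the 2 called for 2-PCPA against Rapamycin without small RNAs and clone names. TPM scaling gave 1 for 2-PCPA against Rapamycin (0.413%). Leaving out 1 library gave 0 to 6 for 2-PCPA against GSK343 and 0 to 1 for GSK343 against Rapamycin. With no replicate block, 0 were called in all 6 comparisons and the medians stayed at -0.61 (2-PCPA), -0.09 (GSK343) and -0.45 (Rapamycin) against DMSO.

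The GSK343 median was 0 with no filter, 0.18 at a mean of at least 5 FPKM, -0.19 with TPM scaling and -0.209 to 0.0494 without 1 library. The Rapamycin median was -0.23 with a pseudocount of 5 and -0.14 with no filter. That of 2-PCPA against Rapamycin was -0.0225 with no filter, -0.0552 with quantile normalization and 0.12 with TPM scaling. Without 1 library, the log2 difference ran from -0.17 to 0.80 for HIST1H2AG after 2-PCPA, and after GSK343 from -0.11 to 1.31 for HIST1H4B, -0.14 to 1.65 for HIST1H3A and -2.03 to 0.34 for HIST1H4E.

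In single libraries the counts are of histone genes past the fold. The share of all genes past the fold was not computed under these settings. The counts therefore do not show whether histone genes still differed from all genes. With a pseudocount of 5, 1 was lower in BIX-01294, 0 higher and 6 lower in BRD4770, 7 lower in GSK-J4, 0 lower in SAHA, 1 higher and 1 lower in UNC1215, and 0 in either direction in VPA. With no filter, 7 were higher and 10 lower in BIX-01294, 3 higher in BRD4770, 4 lower in SAHA, 6 lower in UNC1215 and 5 lower in VPA. At a mean of at least 5 FPKM, where fewer genes are left, 0 were higher and 1 lower in BIX-01294, 0 higher and 6 lower in BRD4770, 8 lower in GSK-J4, 8 higher and 0 lower in SAHA, 1 higher and 0 lower in UNC1215, and 0 higher and 1 lower in VPA. With a pseudocount of 0.1, 2 were higher and 4 lower in VPA. The BRD4770 median was -1.86 with a pseudocount of 0.1, -0.58 with 5, -0.43 with no filter and -1.79 with TPM scaling. The GSK-J4 median was -2.97, -0.76, 0 and -1.86 in the same order, and -1.76 at a mean of at least 5 FPKM. The SAHA median was 0.74 with a pseudocount of 5, 0.33 with no filter and 1.54 at a mean of at least 5 FPKM. Beyond the fewer or more genes used, the cause was not tested. FPKM hold no counts, so sampling error at low levels is unknown.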

Other observations

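HIST1H3F was at 16.6 FPKM in BIX-01294 and at most 2.88 FPKM in the other replicate 1 libraries, and was listed at 0 in all 4 replicate 2 libraries. HIST1H4C was at 42.2 FPKM in DMSO replicate 2 and at 3.54 FPKM in DMSO replicate 1, and at 20.9 FPKM in BIX-01294 of the replicate 1 table. HIST2H2AA4, which only the replicate 1 table lists, was above 0 in SAHA only, at 1.20 FPKM, and HIST1H2AI, which only the replicate 2 table lists, was at 0.444 to 1.79 FPKM. In 5 histone genes, 8 values lay between 0 and 0.01 FPKM, such as 0.000132 FPKM for HIST1H3D in Rapamycin replicate 1.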
